A study of Sus scrofa with 24 samples.

Results

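The transcripts described here are interferon response genes, the antiviral programme that cells switch on after sensing infection, measured in the subcutaneous adipose tissue of pigs. A list of 39 such genes was matched to the array by gene symbol, and each gene was read at its brightest probe, the one with the highest mean signal over all arrays. Of the 39 genes, 28 had a probe, and 26 of these were kept because, in 1 group or more, 6 or more of its 8 arrays read them well above background. IRF8 and ISG20 had a probe but did not reach that level, and the other 11 (ADAR, HERC5, IFI35, IFI44, IFI44L, IFI6, IFITM1, IFITM3, TRIM25, UBE2L6 and XAF1) were not analysed here. The 26 kept genes stand among 4304 kept genes with a single symbol and 28606 kept probes.

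Subcutaneous adipose RNA of 24 pigs of 115 kg body weight was hybridised to Agilent arrays in 1 colour, with 1 array per pig and 8 pigs per group. RFIneg pigs belonged to a line with low residual feed intake and ate freely. RFIpl pigs belonged to the high residual feed intake line and also ate freely. RFIplR pigs came from the same high line but were held at the intake of the low line, so that line and feeding level can be set apart. Residual feed intake is the part of an animal's feed use that its growth and maintenance do not account for, and a low value marks an efficient animal. The sources used here give no breed, sex or age for the groups and name no infection or treatment.

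Cells detect viral nucleic acid with cytosolic sensors such as DDX58 (RIG-I) and IFIH1 (MDA5), which lead through IRF3 and IRF7 to the production of type I interferon. Secreted interferon binds its receptor, and a complex that holds STAT2 and IRF9 then turns on a large set of genes in the responding cell. Their products block virus entry and replication (MX, OAS and IFIT proteins, RSAD2), modify other proteins (ISG15) or restrain the signal again (USP18). Fat tissue expresses a basal level of many of these genes, in adipocytes as well as in its resident immune and vascular cells. In whole tissue, fewer cells of a type and less RNA per cell cannot be told apart.

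The arrays fell into 17 bright ones, with a 75th percentile of the processed intensity of 414 to 663, and 7 dim ones at 69.4 to 94.4. The dim arrays were RFIneg 1 and 7, RFIpl 5 and 6, and RFIplR 2, 4 and 6, so each group held both kinds, and all 7 were scanned on the same day. On the bright arrays 52.1% to 79.9% of spots were well above background, and on the dim ones 43.1% to 61.5%. All values below are log2 signal relative to the array's own 75th percentile, so 0 means a signal at that percentile. Even so, 16 of the 26 genes lay lower on the dim arrays than on the bright ones, against 51.1% of all kept probes. The gap exceeded 1 log2 unit for 11 of these, and 3 genes lay more than 1 unit higher on the dim arrays. In keeping with the tissue label, all 7 adipocyte markers (ADIPOQ, PLIN1, LPL, FABP4, LEP, CIDEC and LIPE) were well above background on all 24 arrays. A few arrays also read high for markers of other tissues. The 5 kept skeletal muscle markers lay a median of 9.19 above the mean of the bright arrays on RFIpl 2. They lay 4.20 above it on RFIpl 1 and 2.49 above it on RFIneg 6. The 2 kept keratinocyte markers, SFN and DSP, lay 6.07 above it on RFIpl 7 and 4.63 on RFIpl 8. The keratins KRT5, KRT14 and KRT1 were not analysed here, so SFN and DSP do not settle the cell type.

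The array reads each gene with probes of 60 bases. The 4 below are shown because the clearest deviations of single animals, described further on, rest on several probes of MX1 and OAS1 that bind different stretches of the transcript. Each is given 5′ to 3′ as deposited, in lower case throughout since no base within them is singled out. All 4 can be read without a stop codon in at least 1 frame. The probe with the brightest signal for OAS1 is the first of its pair, and the MX1 pair comes from its 5 probes. The files give these probes no genome position.
OAS1, A_72_P223657: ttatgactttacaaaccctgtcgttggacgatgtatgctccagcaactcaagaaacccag
OAS1, A_72_P719688: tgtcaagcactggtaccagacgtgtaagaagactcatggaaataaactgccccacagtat
MX1, A_72_P444250: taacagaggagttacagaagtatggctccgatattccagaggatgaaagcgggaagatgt
MX1, A_72_P487406: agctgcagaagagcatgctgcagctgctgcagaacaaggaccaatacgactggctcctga
Probes of different genes in the list had at most 13 bases in a row in common, so no probe of one listed gene was close to a copy of another's. The 2 probes of GBP2 shared a run of 56 bases and are therefore not separate readings.

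The first question was whether the lines differed in this programme when both ate freely. None of the 26 genes passed the test in RFIneg against RFIpl (limma, Benjamini-Hochberg adjustment over all kept probes, threshold 0.05), where 0.206% of all kept probes were called, and none had an unadjusted p under 0.05, where 6.86% of all probes did. Of the 26 genes, 9 were higher in RFIneg, against 54% of all kept genes. Their median log2 difference was -0.13, and that of all kept genes was 0.02. The differences ran from -1.22 for MX1 to 0.53 for CXCL10. The 4 smallest p-values belonged to GBP2, MX1, GBP1 and ISG15. Within the bright arrays (6 against 6) the median was 0.02 and within the dim ones (2 against 2) -0.46. By scan day it was -0.10 on day 1 (5 against 3), -0.63 on day 2 (2 against 4) and 0.49 on day 3 (1 against 1). In none of the 26 did the ranges of the 2 groups separate, which they did for 0.0245% of all probes.

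The second question was whether the lines differed at the same feeding level. In RFIneg against RFIplR none of the 26 genes was called and no probe of any kind was (0%), and again no listed gene had an unadjusted p under 0.05, compared with 2.11% of all probes. The genes divided evenly, with 13 higher in RFIneg, and their median log2 difference was 0.00. The median was 0.00 within the bright arrays (6 against 5) and -0.17 within the dim ones (2 against 3). The differences ran from -0.48 for OASL to 0.48 for IRF1.

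The third question concerned feed restriction within the high line. In RFIplR against RFIpl none of the 26 genes was called, against 0.297% of all probes, and 2 had an unadjusted p under 0.05 (IFIT2 and IFIT5), beside 8.18% of all probes. In this comparison 11 genes were higher in RFIplR, the median log2 difference was -0.04, and the range ran from -1.07 for MX1 to 0.59 for IFIT2. The median was -0.03 within the bright arrays (5 against 6) and -0.26 within the dim ones (3 against 2). The ranges of the 2 groups separated for none of the 26 and for 0.154% of all probes. A test for any difference among the 3 groups called none of the 26 and 0.28% of all probes. Both comparisons with RFIpl use the same 8 RFIpl arrays. The 53 kept probes of the 26 genes included no called probe in any of the 3 comparisons.

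**Figure D1:**
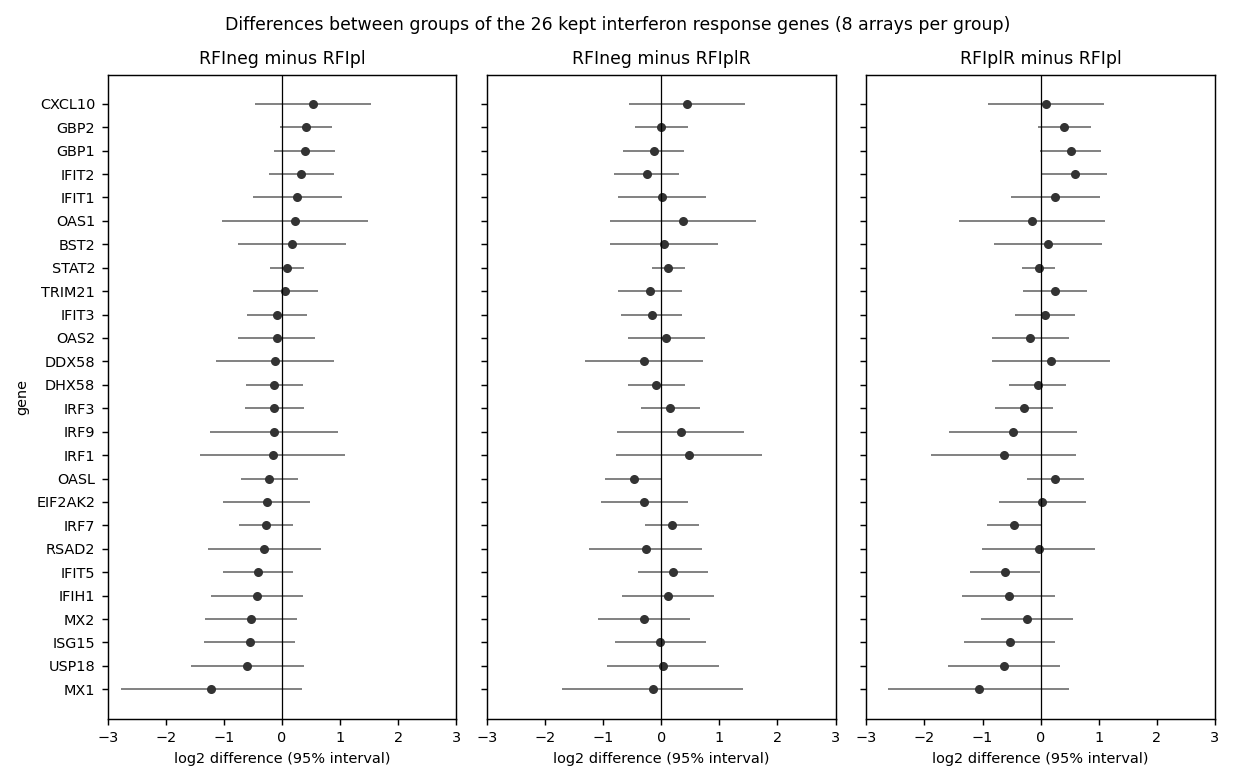
Log2 difference (dot) and its 95% interval (line) for each of the 26 kept genes in the 3 comparisons, 8 arrays per group, ordered by the difference between RFIneg and RFIpl. MX1 has the widest interval, -2.78 to 0.34 in the left panel, and IFIT2 (0.03 to 1.14) and IFIT5 (-1.22 to -0.01) in the right panel are the 2 whose intervals do not cross 0.

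The widths of these intervals set what the main fit, by group alone, could have seen. The difference between bright and dim arrays is part of those widths. For STAT2, a subunit of the interferon-activated transcription complex, the 95% interval of the difference between RFIneg and RFIpl was -0.20 to 0.37, so a change of that gene by 1 log2 unit lies outside it. For MX1 the interval was -2.78 to 0.34, which leaves room for a difference of several fold. The 26 genes varied widely from array to array, with 1 array per pig. After removal of group and brightness, their median residual SD was 0.486, against 0.29 over all kept genes, and 22 of 26 lay above that gene median. MX1 had the largest residual SD in the list at 1.34, a value below which 98.9% of kept genes fell, followed by OAS1 at 1.16 and RSAD2 at 0.87. At the other end, IRF3 stood at 0.152, with 8.05% of genes below it.

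Among the transcription factors, STAT2 was the steadiest of those given in full. It ran from 1.32 to 2.05 with a median of 1.70 in RFIneg, from 1.01 to 2.02 with a median of 1.65 in RFIpl, and from 1.41 to 1.79 with a median of 1.53 in RFIplR. The 3 groups lay on top of each other, and RFIpl 2, the array with the highest muscle markers, was the lowest of all. RFIneg exceeded RFIplR by 0.12 ± 0.14 (SE, n = 8 per group, limma adjusted p = 0.999).

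IRF7, the factor that amplifies interferon production once the response has begun, ran from -0.31 to 0.76 (median 0.44) in RFIneg, from -0.45 to 1.45 (median 0.59) in RFIpl, and from -0.39 to 0.67 (median 0.20) in RFIplR. RFIpl held both the highest and the lowest pig, and the restricted pigs sat within its range. The difference between RFIplR and RFIpl was -0.46 ± 0.22 (SE, n = 8 per group), with an unadjusted p of 0.0502 and a limma adjusted p of 0.611. With each array weighted by its quality the difference was -0.89 and passed (adjusted p = 0.011), under a setting that called 9.63% of all probes. It also passed without RFIpl 2 when brightness was a block (-0.61, adjusted p = 0.042), where 10.9% of all probes were called.

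IRF9, which carries the activated complex to DNA, separated by brightness and not by group. Its median was 0.95 in RFIneg, 0.96 in RFIpl and 0.51 in RFIplR. The ranges were -1.47 to 1.21, -1.20 to 1.18 and -2.38 to 1.32. The low values all came from dim arrays, where the mean of IRF9 differed by -2.12 from that of the bright ones. RFIplR against RFIpl differed by -0.48 ± 0.53 (SE, n = 8 per group, limma adjusted p = 0.999). Of the other factors, IRF1 and IRF3 had no adjusted p under 0.999 in any comparison at their brightest probe. The second probe of IRF3 differed by -0.52 in RFIplR against RFIpl (limma adjusted p = 0.525), with the same sign as the brightest one (-0.29).

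Over bright and dim arrays together, the cytosolic sensors also varied within groups far more than between them. The mean on the dim arrays differed from that on the bright ones by -1.32 for IFIH1 and -1.55 for DDX58. For both genes the lowest value of each group came from a dim array. IFIH1, which binds long double-stranded RNA, ran from -2.63 to -0.16 (median -0.65) in RFIneg, from -1.80 to 0.06 (median -0.40) in RFIpl and from -2.65 to -0.05 (median -1.05) in RFIplR. RFIpl had the highest pig and the highest median, and all 3 groups overlapped over most of their length. The differences from RFIpl were -0.44 ± 0.39 for RFIneg and -0.55 ± 0.39 for RFIplR (SE, n = 8 per group, limma adjusted p = 1 and 0.913). DDX58, which senses viral RNA with a 5′ triphosphate, lay near the limit of detection and was well above background on 6 of the 8 arrays of each group. Its medians were -2.61 in RFIneg, -2.66 in RFIpl and -2.51 in RFIplR, with lowest values of -4.83, -4.84 and -4.37 and highest values of -2.28, -1.58 and -1.62. The groups overlapped and no comparison passed (smallest of its 3 limma adjusted p = 0.999). DHX58, the regulator of the other sensors that lacks a signalling domain, had differences between -0.13 and -0.05 in the 3 comparisons.

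ISG15, a ubiquitin-like protein that is joined to newly made proteins during the response, was among the 4 genes with the smallest p in RFIneg against RFIpl. It ran from 1.73 to 3.61 (median 2.92) in RFIneg, from 2.57 to 4.73 (median 3.18) in RFIpl and from 1.61 to 4.09 (median 2.89) in RFIplR. The lowest RFIpl pig stood well above the lowest of the other groups, but most of the values overlapped. The difference was -0.56 ± 0.38 for RFIneg and -0.53 ± 0.38 for RFIplR against RFIpl (SE, n = 8 per group, limma adjusted p = 1 and 0.925). USP18, the protease that removes ISG15 and damps receptor signalling, had differences of -0.60 ± 0.47 and -0.63 ± 0.47 in the same comparisons (limma adjusted p = 1 and 0.952), and both of its probes had that sign. TRIM21, an antibody receptor and ubiquitin ligase inside the cell, was within 0.25 of RFIpl in both.

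The MX genes encode dynamin-like GTPases that trap viral nucleocapsids. MX1 ran from -2.23 to 3.36 (median 2.44) in RFIneg, from 1.48 to 4.17 (median 2.96) in RFIpl and from -0.81 to 3.88 (median 2.39) in RFIplR. Below every RFIpl pig lay 3 pigs of RFIneg and 3 of RFIplR, 4 of these on dim arrays, and the others overlapped. The difference from RFIpl was -1.22 ± 0.76 for RFIneg and -1.07 ± 0.76 for RFIplR (SE, n = 8 per group, limma adjusted p = 0.966 and 0.921), and all 5 probes of MX1 had that sign. MX2 ran from -1.07 to 1.32 (median -0.51) in RFIneg, from -0.75 to 1.58 (median 0.02) in RFIpl and from -1.28 to 0.77 (median -0.14) in RFIplR. The highest pig of RFIneg and of RFIpl was on a dim array, and the groups overlapped (RFIneg against RFIpl -0.54 ± 0.38, SE, n = 8 per group, limma adjusted p = 1).

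OAS1 makes the small messenger molecules that activate RNase L. It ran from -0.02 to 2.12 (median 1.76) in RFIneg, from -2.67 to 2.19 (median 1.65) in RFIpl and from -0.58 to 2.48 (median 1.01) in RFIplR. Apart from 1 very low pig, RFIpl ran only from 1.07 to 2.19, and RFIneg and RFIplR both held pigs below that span. The lowest pig of RFIneg and of RFIplR was on a dim array. The 3 adjusted p-values of limma were 0.999 or 1. OASL, a relative of OAS1 that lacks this enzyme activity and enhances RIG-I signalling, had the smallest p of the list in RFIneg against RFIplR. It ran from -3.62 to -3.23 (median -3.46) in RFIneg, from -3.76 to -2.18 (median -3.29) in RFIpl and from -3.96 to -2.04 (median -3.02) in RFIplR. It was well above background on 5, 7 and 5 arrays. The RFIneg pigs lay in a narrow band inside the range of the restricted pigs. The difference was -0.48 ± 0.24 (SE, n = 8 per group), with an unadjusted p of 0.0554 and a limma adjusted p of 0.999.

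The IFIT proteins bind foreign RNA ends and block its translation. IFIT2 ran from -1.28 to 0.22 (median -0.96) in RFIneg, from -2.11 to 0.13 (median -1.23) in RFIpl and from -1.18 to -0.04 (median -0.39) in RFIplR. Of the RFIplR pigs, 6 lay above the median of both other groups, but the highest pig of RFIneg and of RFIpl stood above all of them. RFIplR exceeded RFIpl by 0.59 ± 0.27 (SE, n = 8 per group), with an unadjusted p of 0.039 and a limma adjusted p of 0.555. The difference passed with slide and brightness as blocks (0.79, adjusted p = 0.0089), where 5.92% of all probes were called, and with array weights (0.69, adjusted p = 0.0347). IFIT5 went the other way and ran from -1.50 to -0.25 (median -0.40) in RFIneg, from -0.84 to 0.41 (median -0.17) in RFIpl and from -1.97 to 0.09 (median -0.52) in RFIplR. The lowest 3 pigs of RFIplR were those on dim arrays, where IFIT5 read lower on average than on the bright ones. The difference between RFIplR and RFIpl was -0.62 ± 0.29 (SE, n = 8 per group, unadjusted p = 0.0471, limma adjusted p = 0.6). Its call changed under several settings: with brightness as a block it passed without RFIpl 2 (-0.59, adjusted p = 0.0331) and without RFIpl 3 (-0.57, adjusted p = 0.0383, with 12.8% of all probes called). With array weights it passed in RFIneg against RFIpl (-0.54, adjusted p = 0.0351), where 10.3% of all probes were called. IFIT1 had medians of -0.63 in RFIneg, -0.82 in RFIpl and -0.50 in RFIplR, over ranges of -2.16 to 0.00, -2.12 to -0.42 and -2.29 to 0.18. Its groups overlapped and the difference between RFIplR and RFIpl was 0.25 ± 0.37 (SE, n = 8 per group, limma adjusted p = 0.999). Once RFIpl 6 was removed and a block for brightness added, that difference was 0.63 (adjusted p = 0.0449, with 6.99% of all probes called there).

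The guanylate-binding proteins GBP1 and GBP2, which coat and disrupt the membranes of vacuoles holding microbes and respond most to interferon gamma, had their lowest group medians in RFIpl. GBP1 ran from 2.13 to 3.78 (median 2.91) in RFIneg, from 1.88 to 3.01 (median 2.68) in RFIpl and from 2.48 to 3.93 (median 2.95) in RFIplR. GBP2 ran from 1.01 to 2.06 (median 1.78) in RFIneg, from 0.32 to 1.80 (median 1.53) in RFIpl and from 1.23 to 2.21 (median 1.68) in RFIplR. For both genes the highest RFIpl pig lay below the highest pigs of the other groups, and the ranges overlapped widely. GBP1 differed from RFIpl by 0.39 ± 0.25 in RFIneg and 0.52 ± 0.25 in RFIplR (SE, n = 8 per group, limma adjusted p = 1 and 0.623), with the same sign in all 3 of its probes. GBP2 differed by 0.41 ± 0.22 in each (limma adjusted p = 0.829 and 0.699). In RFIplR against RFIpl the difference of GBP2 passed with slide and brightness as blocks (0.66, adjusted p = 0.0356) and with brightness as a block without RFIpl 6 (0.61, adjusted p = 0.0272).

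RSAD2 (viperin) makes a modified nucleotide that stops viral RNA synthesis. It ran from -0.37 to 0.53 (median 0.01) in RFIneg, from -0.78 to 3.06 (median -0.07) in RFIpl and from -1.06 to 1.83 (median -0.16) in RFIplR. RFIneg held no pig above 0.53, whereas RFIpl held 1 far above the rest and RFIplR held 3 that exceeded 1. The group SDs were accordingly 0.282, 1.18 and 1.17, while the differences of means lay between -0.30 and -0.03 (smallest limma adjusted p = 0.999). Of those high pigs, RFIpl 6, RFIplR 2 and RFIplR 6 were on dim arrays and RFIplR 3 on a bright one. The mean of RSAD2 on the dim arrays differed by 0.99 from that on the bright ones. The chemokine CXCL10, which draws activated T cells, ran from -1.43 to 2.25 (median 0.66) in RFIneg, from -1.89 to 1.72 (median -0.14) in RFIpl and from -0.76 to 1.26 (median -0.21) in RFIplR. RFIneg had the highest pig and the highest median, within ranges that overlapped over most of their length. Its difference was 0.53 ± 0.48 against RFIpl and 0.44 ± 0.48 against RFIplR (SE, n = 8 per group, limma adjusted p = 1 and 0.999).

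**Figure D2:**
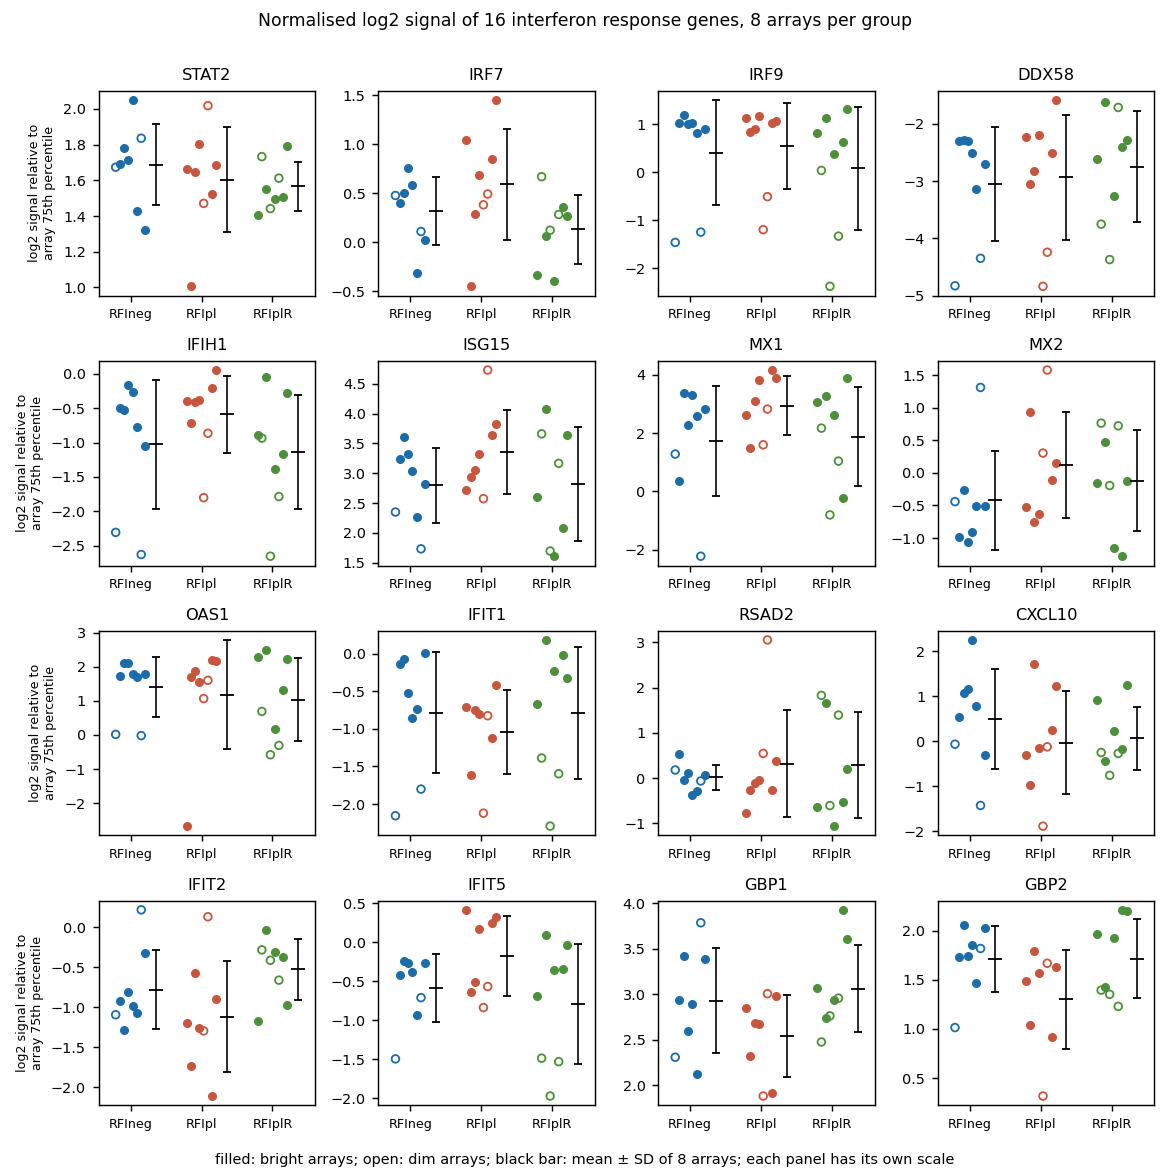
Log2 signal relative to the array's 75th percentile (vertical axis, its own scale in each panel) of 16 genes in the 8 pigs of each group, with filled points for bright arrays, open points for dim arrays and a black bar for mean ± SD. The groups overlap in every panel. The open points lie low for IRF9 and IFIT1, and for DDX58 apart from RFIplR 6 (-1.71). Single pigs stand apart for OAS1 (-2.67 in RFIpl) and RSAD2 (3.06 in RFIpl).

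The arrays differed in how high the whole programme stood. With 1 array per pig, a difference between pigs cannot be told from one between arrays. For each array, the median over the 26 genes of the deviation from the mean of arrays of the same brightness was taken. These medians ran from -0.30 to 0.18 in RFIneg, from -0.55 to 0.68 in RFIpl and from -0.54 to 0.42 in RFIplR. The groups overlapped and the RFIneg pigs covered the narrowest span. The dim arrays of slide 5 (RFIneg 1, RFIpl 5 and RFIplR 4) had medians of -0.30, -0.27 and -0.54. Those of slide 6 (RFIplR 2 and 6) had 0.31 and 0.11, and those of slide 4 (RFIneg 7 and RFIpl 6) -0.28 and 0.68. The bright array of slide 5, RFIplR 8, stood at 0.33. The part of the slide was not tested. The highest pig was RFIpl 6, where 24 of the 26 genes lay above the mean of the dim arrays and 14 had their highest value among the 7 of them. Over all kept probes that array was above the mean for 54.3% and the highest for 17.9%. There ISG15 stood at 4.73 with the next dim array at 3.66, RSAD2 at 3.06 with the next at 1.83, and OAS2 at 4.95 with the next at 3.79. The highest bright array was RFIplR 3, with 20 of 26 genes above the mean and 8 at their highest among 17, against 4.59% of all probes at their highest there. RSAD2 reached 1.67 in that pig and no more than 0.53 on any other bright array, and ISG15 reached 4.09. CXCL10 differed from these, since RFIplR 3 had its second lowest value on a bright array (-0.44). RFIpl 8, where SFN and DSP read high, also had 24 of 26 genes above the mean of the bright arrays, with a median deviation of 0.29. Of all probes, 53.5% were above it there. The part of the SFN and DSP transcripts was not tested.

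Some arrays stood low across the list. On RFIplR 4 the median deviation was -0.54, and 14 of the 26 genes had their lowest value among the dim arrays there, where 14.6% of all probes did. RFIpl 2, the array with the highest muscle markers, had a median of -0.55, and 9 genes were at their lowest among the bright arrays, against 16.6% of all probes. The part of the muscle transcripts in that value was not tested. RFIplR 5 was low as well, with 5 of 26 genes above the mean, although 45.5% of all probes were above it. RFIneg 6 had a median of -0.18, with 5 of 26 genes and 58.8% of all probes above the mean of the bright arrays. On RFIneg 1 the median was -0.30, with 4 of 26 genes and 51.8% of all probes above the mean of the dim arrays. Markers of immune cells varied over the same pigs. Where the list stood high, the 4 kept macrophage markers deviated by 0.04 on RFIpl 6, -0.93 on RFIplR 3 and 0.37 on RFIpl 8. They deviated by 0.95 on RFIplR 8 and -0.23 on RFIplR 2, where 21 and 22 of the 26 genes were above the mean. Where the list stood low, these markers deviated by -0.30 on RFIplR 4, -0.44 on RFIplR 5, 0.55 on RFIpl 2, 0.54 on RFIneg 1 and 0.08 on RFIneg 6. The 6 kept markers of T and NK cells deviated by -0.02, -0.41, 0.50, 0.39 and 0.38 on those high arrays, in the same order. On the low ones, also in that order, they deviated by -0.02, 0.51, -0.24, -0.02 and 0.26. The part of these cells in the level of the list was not tested.

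**Figure D3:**
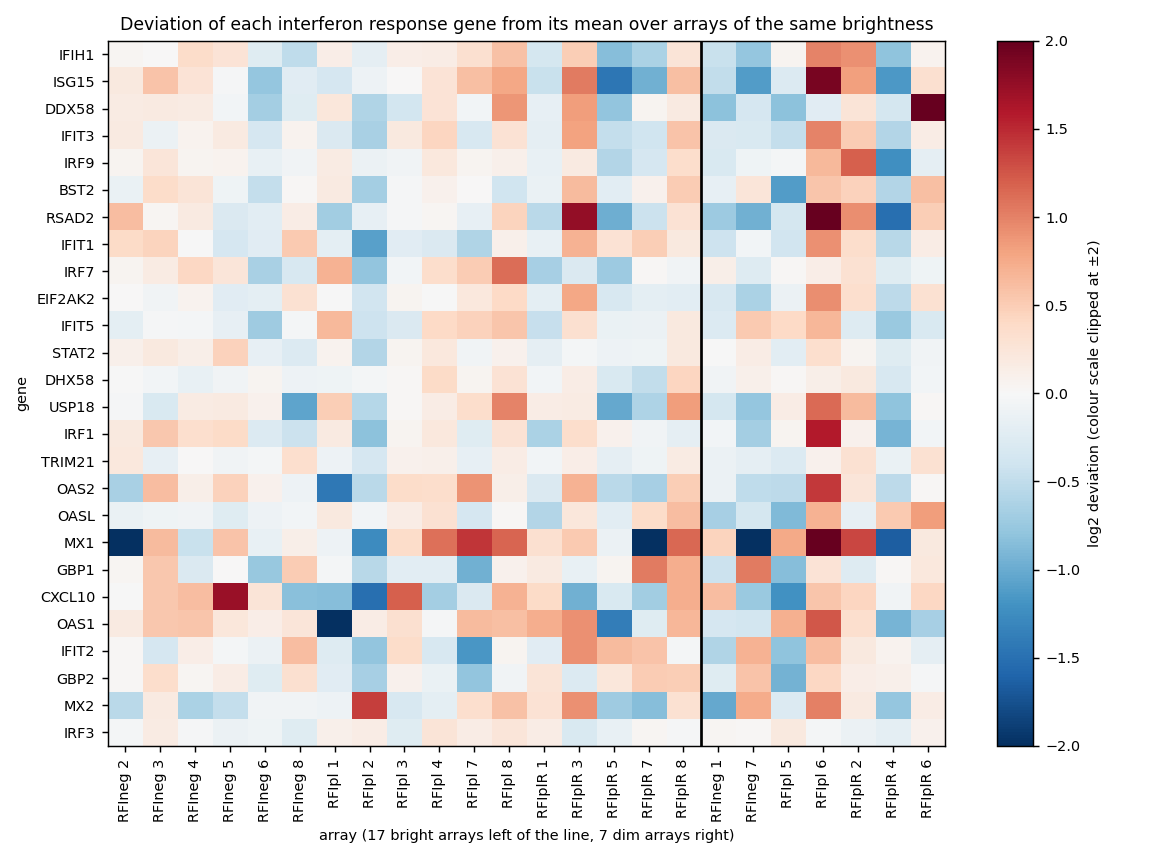
Deviation of each of the 26 genes (rows) from its mean over arrays of the same brightness, in log2 units, for 17 bright and 7 dim arrays (columns, ordered by group within each kind). RFIpl 6 and RFIplR 3 are red for most genes, RFIplR 4 and RFIplR 5 are blue for most, and dark blue single cells mark MX1 on RFIneg 2 and RFIplR 7 and OAS1 on RFIpl 1.

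MX1 and OAS1 each stood far below the other bright arrays in particular pigs. At its brightest probe MX1 stood at -0.22 on RFIplR 7 and 0.37 on RFIneg 2, where the next lowest bright array was 1.48 and the median of bright arrays was 3.05. All 5 probes of MX1 had these same 2 pigs as the lowest bright arrays. Of the 2 MX1 probes printed above, A_72_P444250 read -5.40 on RFIplR 7 and A_72_P487406 read -4.77 there, with -3.93 and -3.38 on the lowest bright array other than these 2 pigs. On RFIneg 2 both of these probes were not well above background, so they give only a limit for that pig, while the other 3 probes were well above background in both pigs. The rest of the list differed between them. On RFIneg 2, 16 of the 26 genes were above the mean of the bright arrays. On RFIplR 7 only 9 of 26 were, with a median deviation of -0.16, and ISG15 had its second lowest value on a bright array there (2.08, against a median of 3.05). Among the dim arrays MX1 was lowest on RFIneg 7 (-2.23) and RFIplR 4 (-0.81). MX2, which lies directly next to MX1 in the pig genome, was also lowest of the bright arrays on RFIplR 7 (-1.28), but its other probe was lowest on RFIplR 5 (-1.14).

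OAS1 stood at -2.67 on RFIpl 1, while the other 16 bright arrays lay between 0.18 and 2.48. Its second probe gave the same picture, with -4.48 on RFIpl 1 and -1.21 on the next lowest bright array. The signal was well above background there at both probes, so the value is a level and not a limit. OAS2, a relative that lies directly beside OAS1, was lowest on RFIpl 1 as well: all 5 of its probes had that pig as the lowest bright array, with 2.33 at the brightest probe against 3.11 on the next. RFIpl 1 was ordinary for the list as a whole, with 11 of 26 genes above the mean of the bright arrays and a median deviation of -0.07. Its muscle markers were raised, as given above, and their part in the OAS values was not tested.

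**Figure D4:**
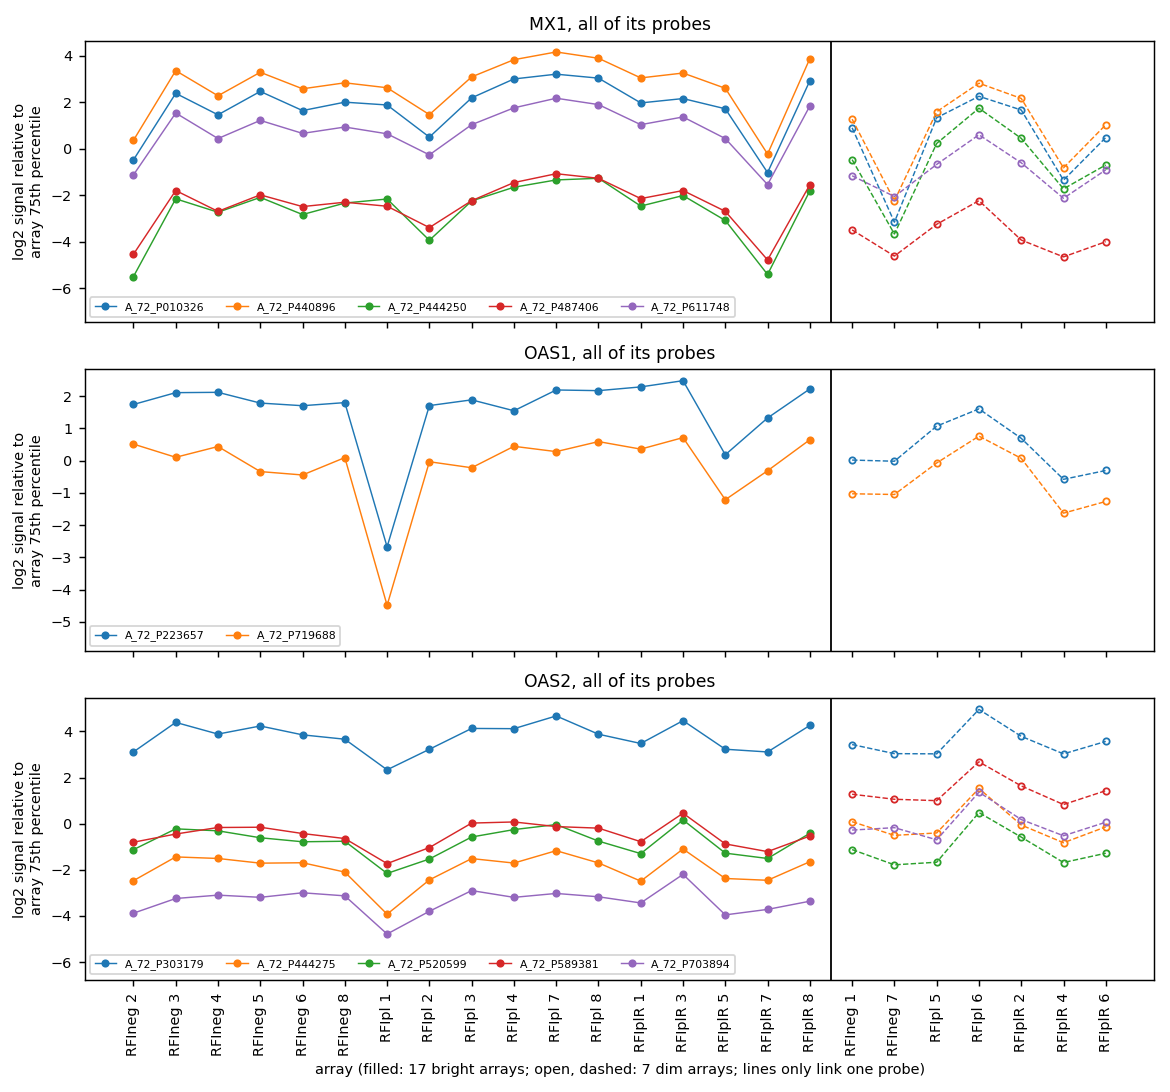
Log2 signal relative to the array's 75th percentile for all 5 probes of MX1, both probes of OAS1 and all 5 probes of OAS2 on each array, with bright arrays left of the line and dim ones right. The probes of a gene dip together: MX1 on RFIneg 2 and RFIplR 7 (-0.22 at its brightest probe on the latter), OAS1 and OAS2 on RFIpl 1 (-2.67 and 2.33 at their brightest probes), and all rise on RFIpl 6 among the dim arrays.

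Over the 17 bright arrays, with group means removed, the genes of the list tended to move together. The median Pearson correlation over their 325 pairs was 0.322, against 0.0246 over all pairs of 4284 kept genes, and 27.1% of the pairs in the list exceeded 0.5, against 8.3%. Without RFIpl 2 the medians were 0.281 and 0.016 over 16 arrays. These correlations are descriptions across arrays that share slides and scan days, and no p is attached. The closest pair was ISG15 and IFIH1 (r = 0.873, rho = 0.897, and r = 0.773 without the 2 arrays farthest from the median of ISG15). ISG15 also followed IRF9 (r = 0.844, rho = 0.809) and RSAD2 (r = 0.828, rho = 0.782). With the 2 farthest arrays left out these were 0.769 and 0.691. By the median of its correlations with the other 25, IFIH1 (0.528), ISG15 (0.525) and DDX58 (0.521) were the most typical genes of the list, with 0.501, 0.551 and 0.50 when RFIpl 2 was left out.

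A few genes kept apart from that main pattern. GBP1 and GBP2 followed each other closely (r = 0.855, rho = 0.865, and 0.809 without the 2 farthest arrays) but had a median correlation of 0.209 and 0.099 with the rest of the list. The medians of IFIT2, OAS1 and CXCL10 were 0.12, 0.18 and 0.184, and they were -0.082, 0.256 and 0.10 without RFIpl 2. The low median of MX2 (0.074) rested on RFIpl 2, the array with the highest muscle markers, since it was 0.333 without that array. IRF3, which is present in resting cells and is activated by phosphorylation and not by induction, was at -0.01, and its lowest pair was with IFIT2 (r = -0.657, rho = -0.551). MX1 had a median of 0.277.

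**Figure D5:**
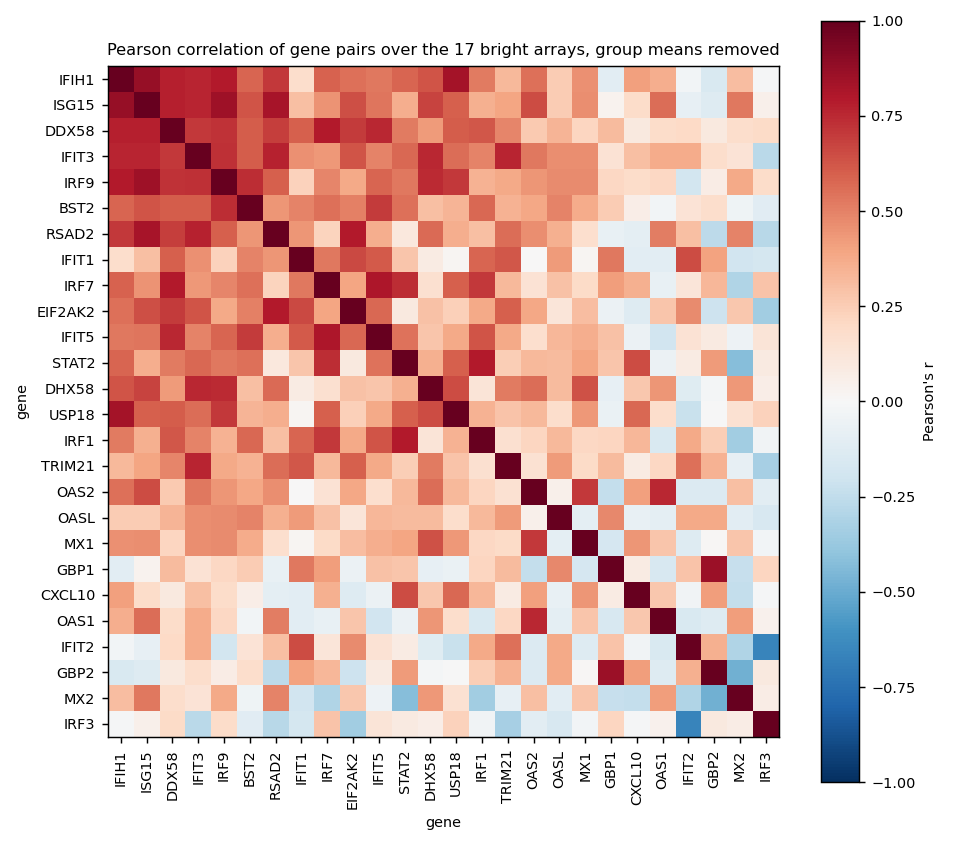
Pearson correlation of each pair of the 26 genes over the 17 bright arrays after removal of group means, with genes ordered by their median correlation with the rest. The upper left block from IFIH1 to DHX58 is mostly red, GBP1 and GBP2 form a red pair of their own (0.855), and the row of IRF3 is pale or blue.

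Several genes of the list are neighbours in the pig genome, by the gene order of the Sscrofa11.1 RefSeq annotation, with no protein-coding gene between them: MX1 and MX2, OAS1 and OAS2, IFIT2 and IFIT3, IFIT3 and IFIT1, and GBP1 and GBP2. The correlation over the bright arrays was 0.855 for the GBP pair and 0.752 for the OAS pair, 0.457 for IFIT3 and IFIT1, 0.373 for IFIT2 and IFIT3, and 0.277 for the MX pair. Without RFIpl 2 these values were 0.867, 0.811, 0.303, 0.296 and 0.654, so the MX value in particular depended on that array. Without the 2 arrays farthest from the median of GBP1, OAS2, IFIT3 (for both IFIT pairs) and MX1 they were 0.809, 0.547, 0.108, 0.114 and -0.143, so the IFIT and MX values rested on those arrays. No order among the pairs is drawn from them.

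The wider pathway was read from 5 lists of 71 genes in all, of which 40 had a probe and 33 were kept. No kept gene of these lists was called in any of the 3 comparisons, and the median differences were -0.02 in RFIneg against RFIpl, -0.09 in RFIneg against RFIplR and 0.06 in RFIplR against RFIpl. Unadjusted p-values under 0.05 numbered 1, 1 and 2. Of 9 interferon ligands listed, only the probe of IFNA1 was kept, on 17 arrays well above background, and IFNB1 was well above background on 0 arrays. Of the 9 kept receptors and kinases, IFNAR1, a chain of the type I interferon receptor, was -0.41 in RFIneg against RFIpl (limma adjusted p = 1), and IL10RB, a shared chain of the interferon lambda receptor, was 0.80 in RFIplR against RFIpl (limma adjusted p = 0.316). None of 8 kept sensors and adaptors and none of 6 kept feedback regulators was called. Of the 9 other interferon-stimulated genes, CXCL9, a chemokine of the same receptor as CXCL10, had the largest difference with 1.34 in RFIneg against RFIpl (limma adjusted p = 0.289).

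With brightness as a block, which raised the share of all probes called to 6.62% in RFIneg against RFIpl and 10.4% in RFIplR against RFIpl, the 26 genes still gave no call in any comparison. The smallest limma adjusted p of the list was then 0.158 for GBP2 in RFIneg against RFIpl and 0.0854 for IFIT5 in RFIplR against RFIpl. In the wider pathway 3 genes were called in RFIneg against RFIpl under that setting. IFNAR1 fell by 0.41 (adjusted p = 0.0144), CXCL9 rose by 1.34 (adjusted p = 0.0394), and SAT1, a polyamine-degrading enzyme, rose by 0.49 (adjusted p = 0.0269). In RFIplR against RFIpl IL10RB rose by 0.68 (adjusted p = 0.0149) and the receptor kinase TYK2 by 0.34 (adjusted p = 0.0178). The test for any difference among the groups called IFIT5 and IRF7 with array weights, where it called 13.6% of all probes. It called IFIT2 with slide and brightness as blocks (3.4% of all probes), and GBP2 with a block for brightness once RFIpl 6 was removed (5.89%).

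Cell type markers differed between the groups in part. None of 7 adipocyte markers, 4 kept macrophage markers, 6 of T and NK cells, 5 of endothelium or 2 of fibroblasts was called, although 5 of the 7 adipocyte markers had an unadjusted p under 0.05 in RFIneg against RFIpl (median difference 0.48). Of the 3 calgranulins, genes used as markers of neutrophils and monocytes, 2 were called higher in RFIneg than in RFIpl (median difference 1.90 over the 3), and S100A12 was called higher in RFIplR than in RFIpl (1.80, limma adjusted p = 0.0478). With brightness as a block, which called the shares of all probes given above, 4 adipocyte markers, all 3 calgranulins and VWF of endothelium were called higher and COL1A2 of fibroblasts lower in RFIneg than in RFIpl. In RFIplR against RFIpl that setting called 2 adipocyte markers, 3 calgranulins and 2 endothelial markers higher, and KDR of endothelium and COL1A2 lower. The mean log2 level of these 3 ran from 0.52 to 1.58 in RFIneg, from -1.85 to 0.63 in RFIpl and from -0.95 to 1.59 in RFIplR. The mean level of the T and NK cell markers ran from -3.87 to -1.48, -3.82 to -2.28 and -3.25 to -2.23 in the same order. Markers of plasmacytoid dendritic cells were not analysed here. The part of these cells in the values of the interferon response genes was not tested.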

How the data were processed

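Per the file headers, Agilent's Feature Extraction (10.7.3.1) produced the intensity values, and its processed intensity is background-subtracted but not scaled between arrays. The authors' deposited log2 table holds log2 of the same processed intensity centred near each array's median. The submitters' processing notes name R (2.10.0).

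Processed intensities (floor 1) were put on the log2 scale, and each array's 75th percentile, taken without control probes, was subtracted. Spots flagged as non-uniform were dropped, and the remaining spots of each probe averaged. A probe was kept if 6 or more of the 8 arrays in any group were well above background and no more than 6 arrays lacked a value. Symbols came from accessions matched to a RefSeq table of Sscrofa11.1 (7185 probes), gene identifiers (1367) or the files (3593), and 31429 probes had none and 29 several. One limma 3.58.1 fit (R 4.3.3, lmFit and eBayes) over all 24 arrays gave the comparisons, two-sided, adjusted over all kept probes. The fit was first checked on simulated data, which held no difference between bright and dim arrays. Figures used matplotlib 3.10.9. Precision is limited by the number of arrays.

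The genes and lists were chosen with earlier results of these data known. Values are given in full for the 4 genes with the smallest p in each comparison and for MX1, MX2, ISG15, IFIT1, OAS1, RSAD2, CXCL10, STAT2, IRF7, IRF9, DDX58 and IFIH1. OAS2, USP18 and other genes were named after their values were seen. The planned motif count in promoters was not run, since no promoter sequence was used here. Alternatives covered blocks, brightness classes, background correction, scaling, filters, probe choice, array weights, the deposited table and leaving out arrays.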

Additional observations from a re-analysis of the deposited data

Results flagged for a closer look

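In 6 of the 84 sets of 8 arrays (28 genes in 3 groups), the lowest or highest pig lay apart from the next by a share of its group's whole range above Dixon's 95% critical value for 8 values. For 8 values from a single normal distribution, chance alone marks about 1 group in 20. The groups here mix bright and dim arrays, so that rate need not hold. The widest gap was that of OAS1 in RFIpl, where RFIpl 1 stood at -2.67 and the next pig at 1.07. RSAD2 stood at 3.06 on RFIpl 6, with the next RFIpl pig at 0.55. OASL, near the limit of detection, stood at -2.18 on the same array, with the next at -3.08. MX2 stood at 1.32 on RFIneg 7, with the next RFIneg pig at -0.26. BST2, a protein that tethers budding virus to the cell, stood at -1.99 on RFIpl 5 with the next at -0.32, and IRF1 stood at -1.96 on the same array with the next at -0.43. RFIpl 5, RFIpl 6 and RFIneg 7 are dim arrays, and over the list the dim arrays differed from the bright ones by -1.67 for BST2, -2.43 for IRF1, 1.01 for MX2, 0.99 for RSAD2 and 0.50 for OASL. OAS1 on RFIpl 1 is a reading of a bright array.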

How the results depend on the processing

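Across 44 other settings and 24 more added after seeing the data (brightness as a block, leaving out each array), the count of called genes stayed at 0 in all 68 for RFIneg against RFIplR, and at 0 in 67 for RFIneg against RFIpl, 63 for RFIplR against RFIpl and 65 for any difference. Array weights gave 1, 2 and 2 calls in RFIneg against RFIpl, RFIplR against RFIpl and any difference, where 10.3%, 9.63% and 13.6% of all probes were called. Slide and brightness as blocks gave 2 and 1 in the last pair (5.92% and 3.4% of all probes). With brightness as a block, leaving out RFIpl 2, RFIpl 3 or RFIpl 6 gave 2, 1 and 2 calls in RFIplR against RFIpl (10.9%, 12.8% and 6.99% of all probes), and leaving out RFIpl 6 gave 1 for any difference (5.89%). Leaving out each array without a block gave 0 to 0 throughout. The cause was not tested. The median difference in RFIneg against RFIpl was -0.46 (dim arrays alone, 2 against 2), the lowest of all, and 0.02 (bright arrays alone), the highest. The 3 medians otherwise stayed within the SD of 0.307 between the arrays of a group. Between arrays of the same replicate number, correlations of deviations from group means ran from -0.819 to 0.879, over 0.1 in 12 of 24 pairs. Of 24 arrays, 0 were closest to their own number. These deviations kept the difference between bright and dim arrays, so they cannot decide whether the numbers pair the arrays. The fit with the replicate number as a block called 0 genes in each comparison. Of 51 differences of named genes, 25 kept their sign under every alternative that gave a value, and 6 passed the test under at least 1. DDX58 and OASL, near the detection limit, gave no value under some filters.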
